A study of Homo sapiens with 38 samples.

Results

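CHLA15 is an established human neuroblastoma cell line, and the data described here compare CHLA15 cells treated with palbociclib with untreated CHLA15 cells. The samples were taken by their labels for cell line and treatment, which gave 4 RNA-seq samples of the 38 in the series. In 2 samples the cells had been kept for 72 h in 300 nM palbociclib, and the 2 control samples are labelled as untreated, with no vehicle named. The labels give DMEM with L-glutamine and fetal bovine serum as the medium of these lines, whereas the study's methods name RPMI. No allele or transgene was introduced, and each group is 1 line in culture. The same experiment covered 3 further neuroblastoma lines, each with 2 treated and 2 control samples. CHLA20 received the same dose for the same time, whereas NB1643 and NB1691 received 3 µM. The remaining 22 samples are BE2C cells under other treatments and were not used here. Nothing in the labels says whether the samples of a group came from separate cultures, so p-values measure the spread between these samples, which may be technical.

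Palbociclib inhibits CDK4 and CDK6, the kinases that D-type cyclins activate in G1. These kinases phosphorylate the retinoblastoma protein RB1 and its relatives, which otherwise hold E2F transcription factors on the promoters of genes for DNA replication. A second set of genes, for mitosis, is held down through the MuvB complex at a promoter element known as the CHR. Neuroblastoma arises from sympathetic precursor cells, and its cells range from an adrenergic state with neuronal and catecholamine genes to a mesenchymal state.

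The 4 CHLA15 samples held 52707368 to 70127528 counts on genes, so that 3 counts, the level below which a gene was treated as not detected, came to at most 0.0569 CPM, the count of a gene relative to its sample's total on a common scale. All levels given are CPM scaled by edgeR's TMM factors. Standard errors (SE) and 95% intervals were calculated back from the log2 fold change and F statistic of edgeR's test and include the spread between samples. They are approximate, above all for genes of few counts. Treated and control samples separated along the first principal component of the 4 samples, which held 63.6% of their variance. The line label was read beside a sympathetic marker, GATA3, whose presence alone does not identify the line. GATA3, a transcription factor of sympathetic neuroblasts, stood at 337 and 324 CPM with palbociclib and at 369 and 331 CPM in the controls. MYC stood at 622 and 595 against 719 and 684 CPM and MYCN at 1.93 and 2.19 against 2.29 and 2.28 CPM, and neither passed the test. MYC (log2 fold change -0.20) did pass under 5 alternatives, among them limma-voom (adjusted p = 0.0296) and DESeq2 (adjusted p = 0.0134). GATA3 was present in all 4 samples at levels that overlapped between the groups.

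With palbociclib, 6598 of 22133 genes tested (29.8%) passed an adjusted p of 0.05 in edgeR's quasi-likelihood test, 3140 of them higher (14.2%) and 3458 lower (15.6%). Each count of list members that follows stands against these 2 shares. Both treated samples lay on the same side of both controls in 14014 of the genes tested and in 6597 of the 6598 that passed. Such a separation therefore adds little to a call. Most of the changes were small. The log2 fold change of 60.6% of these genes lay within 0.5, and their median size was 0.41. Beyond 1 on the log2 scale, 357 genes rose (1.61%) and 589 fell (2.66%). The fitted changes of all genes had a median of -0.002. In bulk samples such as these, fewer cells of a type or cycle phase and less RNA per cell cannot be told apart. Among genes of at least 1 CPM, the lowest log2 fold changes belonged to an activin subunit, amino acid transporters, a gap junction protein and enzymes of glutathione and arginine metabolism, and the highest to BRINP2, a gene of a neural family. Most cell cycle genes that fell did so by smaller steps.

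**Figure D1:**
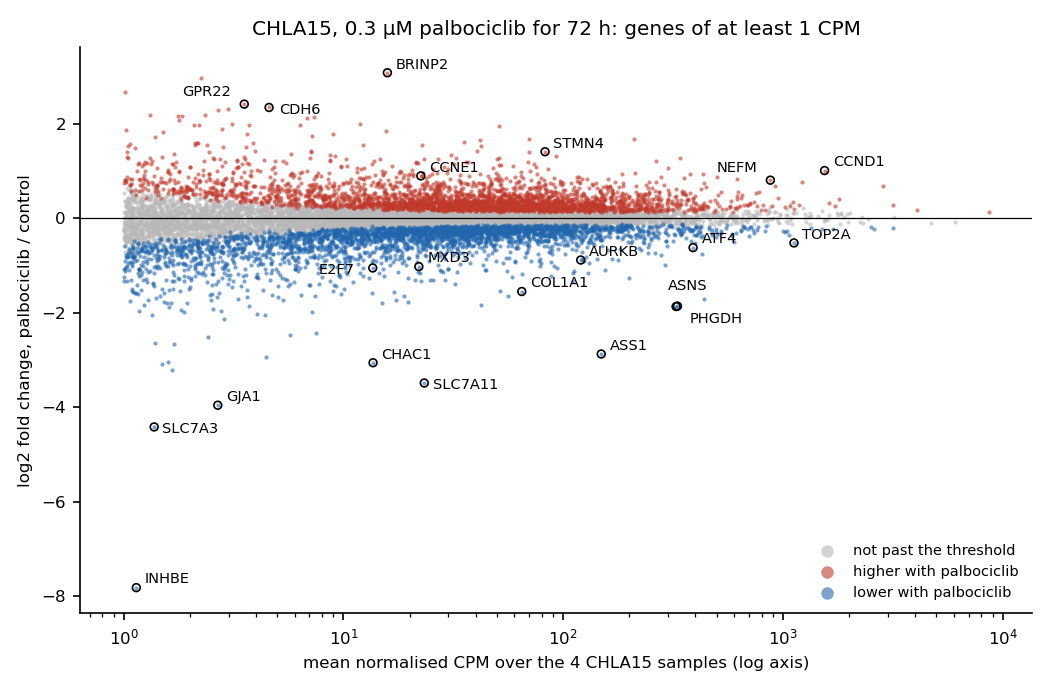
Log2 fold change with palbociclib (y axis) against the mean normalised CPM of the 4 CHLA15 samples (x axis, log scale) for the 13954 genes of at least 1 CPM, 1 point a gene, coloured by the edgeR test. The largest drawn changes are falls, to -4.42 for SLC7A3 and further for INHBE, whose treated samples were at or below 3 counts so that its fitted value is no bound. BRINP2 is the highest point at 3.08.

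The genes of the kinase that palbociclib blocks are described first. CCND1 encodes cyclin D1, the partner of CDK4 and CDK6 (chromosome 11, 69455924 to 69469242 on GRCh37). Its level was 2100 and 2040 CPM with palbociclib and 1060 and 998 CPM in the controls. Both treated samples lay above both controls, and the 2.02-fold rise (log2 fold change 1.01, SE 0.0497, adjusted p = 8.9e-11) was far larger than the spread between samples. CCND3, which encodes cyclin D3, rose from 20.9 and 21.2 to 30.2 and 30.4 CPM, a log2 fold change of 0.53. CCND2 was at or under 3 counts in every sample. CDK4, CDK6 and RB1 did not pass the test, with log2 fold changes of -0.07, 0.18 and 0.09. The RB1 relatives RBL1 and RBL2, which form the repressive pocket protein complexes with E2F4, fell by 0.46 and 0.47 on the log2 scale. The D-type cyclins that were detected thus rose, while CDK4 and CDK6 did not pass. CDK6 passed with no filter beyond 1 count (adjusted p = 0.00941) and with the compared samples fitted alone (adjusted p = 0.00699).

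Of 7 genes for CDK inhibitor proteins, 1 rose, 4 fell and 2 did not pass. The gene that rose was CDKN2D, which encodes the CDK4 and CDK6 inhibitor p19, with 27.2 and 25.7 CPM against 13.3 and 14.2 CPM (log2 fold change 0.94, adjusted p = 4.79e-08). CDKN1A, which encodes p21 and is a target of p53, fell from 28.3 and 27.9 to 17.9 and 18.6 CPM (-0.62). CDKN1C, which encodes p57, fell by 1.04 on the log2 scale, CDKN2A by 0.78 and CDKN2C by 0.44. The inhibitors of the 2 families therefore did not move together, and p21 was lower in both treated samples than in either control. CDKN1B, which encodes p27, stood at 276 and 264 against 276 and 272 CPM.

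Among 10 genes of the E2F family and their DP partners, 4 fell and 1 rose. The atypical repressors E2F7 and E2F8, which are themselves E2F targets, fell most. E2F7 went from 17.9 and 18.8 to 8.28 and 9.43 CPM (log2 fold change -1.05, adjusted p = 7.02e-08), and E2F8 fell by 0.60. The activator E2F1 stood at 89.8 and 85.2 CPM with palbociclib and 82.0 and 88.0 CPM in the controls, and the groups overlapped. E2F2 and E2F4 fell by 0.32 and 0.24, and E2F3 rose by 0.21.

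The cyclins that act after the restriction point did not share a direction. CCNE1, which encodes cyclin E1, the CDK2 partner at the G1 to S transition, rose from 16 and 15.4 to 29.0 and 29.6 CPM (log2 fold change 0.90, SE 0.0664, adjusted p = 1.18e-08). Both treated samples stood 1.87-fold above the controls by the fit, and of 17 genes for cyclins E, A and B, their kinases and regulators, CCNE1 alone passed as higher. Another 11 of the 17 fell. SKP2, the ubiquitin ligase subunit that degrades p27, went from 116 and 114 to 79.9 and 78.0 CPM (-0.54), and CDK2 fell by 0.46. CCNA2, the cyclin of S phase and early mitosis, went from 111 and 115 to 88.8 and 92.5 CPM (-0.32). CDK1, the kinase that starts mitosis, was 142 and 144 against 164 and 171 CPM and missed the threshold (log2 fold change -0.22, adjusted p = 0.0564). It passed under 5 alternatives, with an adjusted p from 0.0027 with no filter beyond 1 count to 0.0429 with upper quartile scaling. Leaving out single samples left 5 to 8 of these 17 genes lower. FOXM1, which drives genes of the G2 and M phases, fell by 0.32, as 1 of 3 lower genes among the 7 of the MuvB list.

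To show what kind of promoter lies behind these genes, RefSeq promoter sequence from 250 bases before to 50 bases after each start (GRCh38.p14) was searched on both strands, and 13222 of the genes tested had such a promoter. The E2F motif was taken as TTTCCCGC, TTTGGCGC, TTTCGCGC or TTTGCCGC, and these windows of genes that fell show it in capitals as it reads on the gene's strand.
CDT1 (chr16:88803743-88803772, plus strand): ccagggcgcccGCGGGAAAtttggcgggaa
CDCA7 (chr2:173354796-173354825, plus strand): tgtgtcccaacGCGGGAAAgacagcccgag
TYMS (chr18:657603-657632, plus strand): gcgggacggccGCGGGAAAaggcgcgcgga
FANCA (chr16:89816801-89816830, minus strand): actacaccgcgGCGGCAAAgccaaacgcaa
KIF15 (chr3:44761740-44761769, plus strand): gtccgatccaaGCGCCAAAttcaaatttgc
The CHR was taken as TTTGAA or TTCGAA and is in capitals in these windows of mitotic genes.
CDC20 (chr1:43358791-43358820, plus strand): cctctcgtacccTTCAAAtcgcgctccgcc
TOP2A (chr17:40418073-40418102, minus strand): cgagtggtgcctTTTGAAgcctctctagtc
PLK1 (chr16:23678848-23678877, plus strand): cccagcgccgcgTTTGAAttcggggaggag
HMMR (chr5:163460592-163460621, plus strand): aatgtggggagaTTTGAAtttgaaaccggt
A match on the other strand appears as its complement, as in CDC20. In KIF15, which encodes a mitotic kinesin, the letters ttcaaa right after the E2F motif are such a CHR. An E2F motif stood in 4.89% of the promoters of all genes tested, in 6.23% of those of genes that fell and in 3.98% of those of genes that rose. It stood in 12 of 23 promoters (52.2%) of the genes for licensing and firing of origins and in 8 of 23 (34.8%) of those of the replication fork. A CHR stood in 11.9% of all promoters, in 16 of 24 (66.7%) of the kinetochore genes and in 24 of 29 (82.8%) of the genes for kinesins, spindle and cytokinesis. Among all genes that fell the share was 12.3% and among those that rose 10.1%, and it was 11.5% below -1 and 17.6% above 1 on the log2 scale. The share among all genes that fell was thus close to that of all promoters. A match is a run of letters in this window and does not show that a factor binds there, and the shares of the lists follow from genes chosen for their function. Genes that fell beyond 1 on the log2 scale carried the E2F motif in 8 of 339 promoters (2.36%), and those that rose beyond 1 in 4 of 199 (2.01%). The E2F motif was thus rarer among the largest changes in either direction than among all genes that fell or rose.

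Genes of S phase fell in part. Of 28 genes that license or fire replication origins, 13 fell and 2 rose, with a median log2 fold change of -0.19. CDT1, which loads the MCM helicase, fell from 72.7 and 68.1 to 40.1 and 38.5 CPM (log2 fold change -0.84, adjusted p = 7.11e-08). ORC1, the subunit of the origin recognition complex whose level follows the cycle, fell by 0.58, and the helicase subunits MCM7 and MCM3 fell by 0.37 and 0.34. CDC6, which acts with CDT1, stood at 105 and 104 against 103 and 110 CPM and MCM10 at 69.5 and 71.5 against 68.9 and 70.2 CPM, so that neither separated the groups. ORC4 and ORC6, also subunits of the origin recognition complex, were the 2 that rose, by 0.34 and 0.20. Without 1 sample at a time, 7 to 11 of the 28 genes were lower past the threshold, and ORC6 lost its call without any 1 of the 4 samples (adjusted p from 0.0521 to 0.103).

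At the replication fork, 17 of 28 genes fell and 1 rose, with a median of -0.25. PRIM1, the small primase subunit, fell from 48.2 and 51.6 to 32.7 and 33.1 CPM (-0.60, adjusted p = 4.02e-07), and POLD2, a subunit of DNA polymerase delta, fell by 0.46. The sliding clamp PCNA stood at 217 and 209 against 220 and 232 CPM and did not pass. RFC3, a subunit of the clamp loader, was the gene that rose, by 0.31. Among 9 genes of nucleotide supply, 5 fell and none rose, and 2 to 4 fell with single samples left out, the 2 being without the second control. TYMS, the thymidylate synthase gene, went from 266 and 271 to 194 and 188 CPM (-0.49), whereas RRM2, the regulated subunit of ribonucleotide reductase, missed the threshold at 249 and 261 against 262 and 284 CPM. Of 10 genes for chromatin assembly and DNA methylation upkeep, 6 fell, led by CDCA7 (-0.63), a partner of the chromatin remodeller HELLS. DNMT1, the maintenance DNA methyltransferase, fell by 0.36. Of 22 genes of the Fanconi anaemia and homologous recombination pathways, 16 fell, and FANCM, which recognises stalled forks, was the gene that rose (0.43).

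Genes of mitosis also fell. Of 31 kinetochore, checkpoint and anaphase genes, 22 fell and none rose, with a median of -0.32. AURKB, the kinase of the chromosomal passenger complex, fell from 154 and 158 to 85.8 and 83.5 CPM (log2 fold change -0.88, SE 0.0671, adjusted p = 1.71e-08). CDC20, which activates the anaphase promoting complex, fell from 109 and 108 to 64.0 and 68.6 CPM (-0.71). SPC24, a kinetochore subunit, fell by 0.67 and PLK1, a mitotic kinase, by 0.49. These were falls of less than 2-fold in which both treated samples lay below both controls. Of 31 genes for mitotic kinesins, spindle, condensin and cytokinesis, 25 fell and none rose, with a median of -0.36. TOP2A, the topoisomerase that separates sister chromatids, went from 1310 and 1340 to 887 and 960 CPM (-0.52), and KIF2C and KIF20A, both kinesins, fell by 0.52. MKI67, the proliferation marker Ki-67, was 345 and 409 against 490 and 483 CPM (-0.37, adjusted p = 0.0327), a call that was lost without the first treated sample (adjusted p = 0.293), without either control and in DESeq2 (adjusted p = 0.169). Leaving out single samples left 17 to 20 of the kinetochore genes and 21 to 23 of the kinesin group lower.

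**Figure D2:**
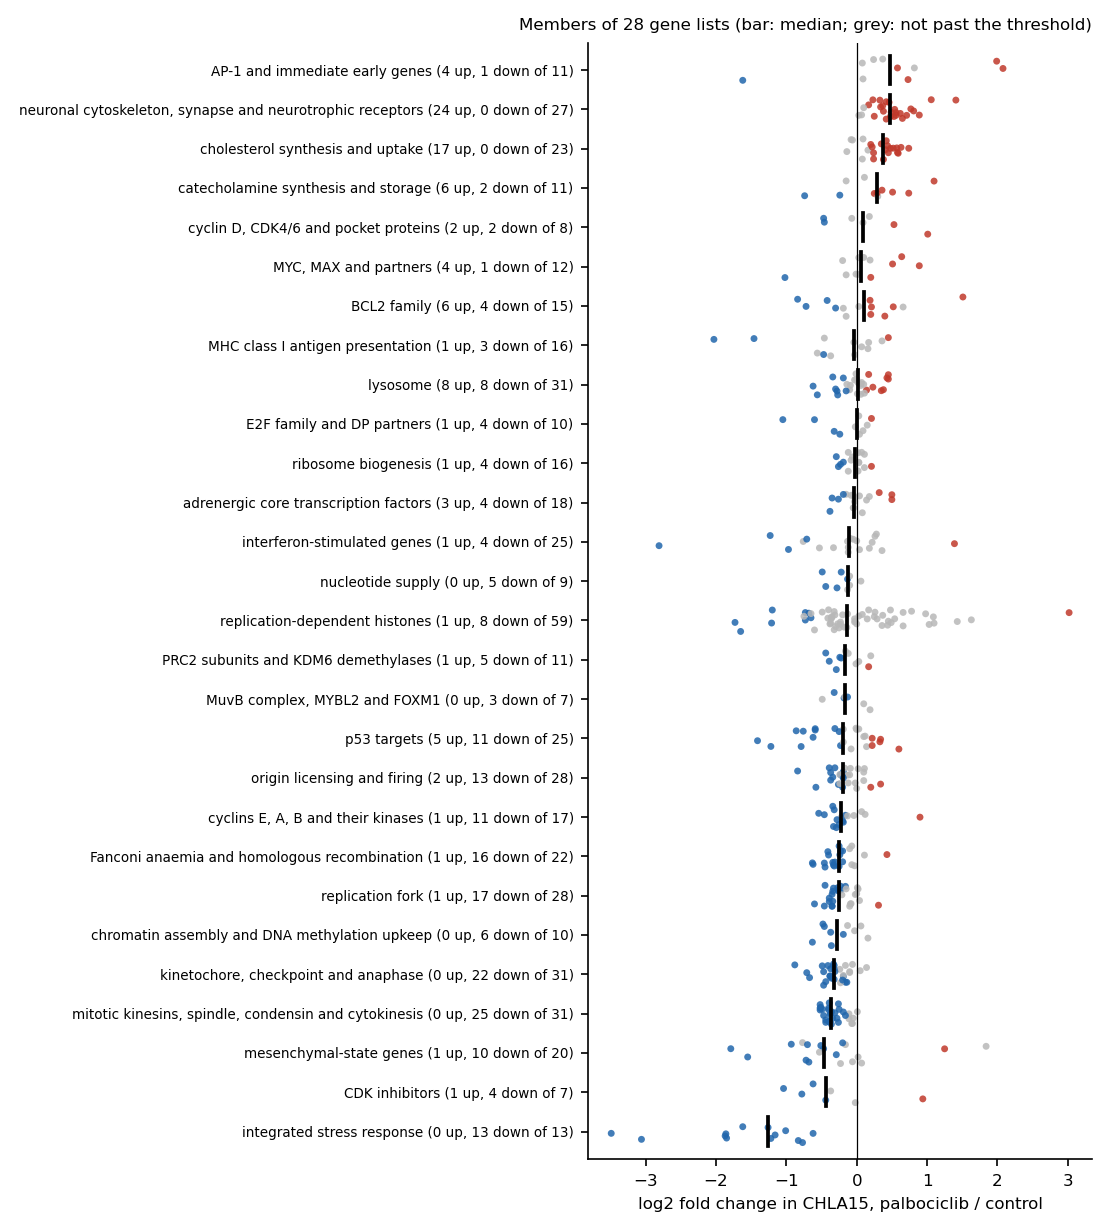
Log2 fold changes in CHLA15 of the members of 28 gene lists (x axis), 1 point a gene, coloured by the edgeR test, with a bar at each list's median; members at or under 3 counts in every CHLA15 sample are left out. The stress response list lies wholly below 0, the mitotic lists lie mostly between -0.5 and 0, and the neuronal and cholesterol lists lie mostly above 0.

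Of 59 replication-dependent histone genes tested, 8 fell (13.6%, against 15.6% of all genes) and 1 rose, so the list as a whole did not stand above the background, and 5 fell without the first treated sample or the second control. HIST1H2BK fell from 24.0 and 29.2 to 7.56 and 8.39 CPM (log2 fold change -1.73, adjusted p = 6.49e-09) and HIST1H1C, a linker histone gene, from 26.3 and 31.0 to 8.97 and 9.27 CPM (-1.65). The members that fell most, HIST1H2AC (-1.2) among them, are genes known to give polyadenylated transcripts as well. HIST1H4A was counted as higher, but its 4 values of 0.0972, 0.897, 0.0791 and 0.0348 CPM show that the rise rests on the second treated sample (adjusted p = 0.0131, and 0.73 without that sample). Histone copies are nearly identical, so reads that match several copies could have been split or dropped in counting, and these values are uncertain.

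The lowest median of the 30 gene lists belonged to the integrated stress response, the programme in which the transcription factor ATF4 raises amino acid synthesis and transport when amino acids or protein folding fail. All 13 genes of this list fell, with a median log2 fold change of -1.26, against 15.6% of all genes tested. The list was drawn up with earlier results of these data known. SLC7A11, the cystine transporter that feeds glutathione synthesis (chromosome 4, 139085251 to 139163503 on GRCh37), stood at 3.63 and 4.02 CPM with palbociclib and at 42.3 and 43.4 CPM in the controls. The 2 groups were far apart, and the fall was 11.2-fold (log2 fold change -3.49, SE 0.136, adjusted p = 5.76e-12). CHAC1, an enzyme that degrades glutathione, went from 29.2 and 19.4 to 3.21 and 2.67 CPM, an 8.32-fold fall. ASNS, the asparagine synthetase gene, went from 450 and 575 to 139 and 142 CPM (-1.87). PHGDH, the first enzyme of serine synthesis, went from 481 and 558 to 145 and 142 CPM (-1.86, adjusted p = 4.63e-12), and PSAT1, the second, from 178 and 180 to 82.5 and 77.5 CPM (-1.16). In these genes the 2 treated samples were close to each other, and the 2 controls of CHAC1 and ASNS were further apart than the treated samples.

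Transcription factors of the same programme fell too. ATF4 itself went from 463 and 483 to 316 and 299 CPM (log2 fold change -0.62, adjusted p = 6.61e-08). DDIT3, which encodes CHOP, fell by 0.77, ATF3 by 1.62 and CEBPB by 1.85. The feedback kinase relative TRIB3 fell by 0.83. SESN2 and DDIT4, both restraints on the growth kinase mTORC1, fell by 1.22 and 1.01, and SLC7A5, the leucine transporter, went from 261 and 303 to 119 and 117 CPM (-1.26). All 13 genes fell under every alternative processing and without each sample in turn. ATF4 is known to be controlled mostly at translation, which RNA counts do not measure.

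The C/EBP-ATF response element, through which ATF4 acts, was searched as TGATGNAA. This motif was chosen after the values were seen. It stood in 3 of 12 promoters of the list (25%) and in 1.91% of all promoters searched. The share of the list follows from genes chosen for their function. Among all genes that fell the share was 1.98% and among those that rose 1.46%. It was 3.83% below -1 and 3.02% above 1 on the log2 scale, so the motif did not mark genes that fell as a whole. The motif is in capitals in the windows of the 3 genes of the list.
CHAC1 (chr15:40953251-40953280, plus strand): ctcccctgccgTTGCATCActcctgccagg
ASNS (chr7:97872458-97872487, minus strand): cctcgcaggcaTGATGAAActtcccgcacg
ATF3 (chr1:212565205-212565234, plus strand): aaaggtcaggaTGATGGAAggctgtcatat
In CHAC1 the element reads on the opposite strand.

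**Figure D3:**
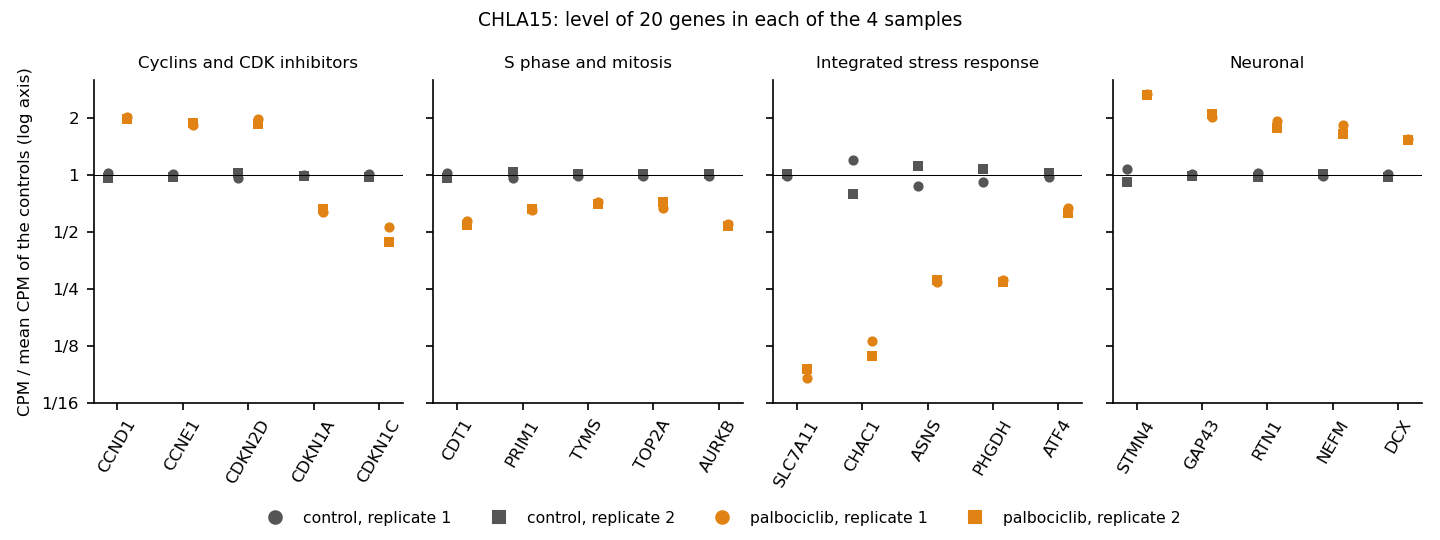
Level of 20 genes (x axis) in each of the 4 CHLA15 samples, as CPM divided by the mean CPM of the controls (y axis, log scale), with circles and squares for the 2 samples of a group, in 4 panels of related genes. In SLC7A11 the treated samples lie far below the controls (3.63 and 4.02 against 42.3 and 43.4 CPM), and in CCND1 and STMN4 both treated samples lie above them.

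Of the 10 lowest log2 fold changes among genes of at least 1 CPM, SLC7A11 and CHAC1 have been given above. INHBE, which encodes an activin subunit (chromosome 12, 57846106 to 57853063), was at 2.20 and 2.35 CPM in the controls and at 0.0162 and 0 CPM with palbociclib. Since its treated samples were within 3 counts of 0, the fall can be given only as at least 44.4-fold. SLC7A3, a transporter of cationic amino acids, fell from 2.20 and 3.06 to 0.130 and 0.112 CPM, a 21.3-fold fall. GJA1, the gap junction protein connexin 43, fell 15.5-fold, from 4.88 and 5.20 to 0.356 and 0.288 CPM. ASS1, the argininosuccinate synthase of the arginine pathway, fell 7.32-fold, from 246 and 279 to 38.7 and 33 CPM (adjusted p = 5.31e-12). GLI2, a transcription factor of Hedgehog signalling, fell 9.32-fold, PCDH8, a protocadherin gene, 8.52-fold, NXPH4, a neurexophilin gene, 8.26-fold, and the non-coding MIR503HG 7.67-fold. In each of the 10 genes both treated samples lay below both controls, which was a condition of their choice. None of the fits of these genes lost its call in any alternative that gave a value.

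Genes of neurons rose together. Of 27 genes for neuronal cytoskeleton, synapse and neurotrophic receptors, 24 rose and none fell, with a median log2 fold change of 0.48, against 14.2% of all genes tested. STMN4, a tubulin-binding protein of neurons, stood at 121 and 119 CPM with palbociclib and 48.8 and 41.6 CPM in the controls (log2 fold change 1.41, SE 0.0687, adjusted p = 8.68e-11). GAP43, a growth cone protein, rose from 55.8 and 54.9 to 113 and 117 CPM (1.06), and RTN1, a neuronal reticulon, from 200 and 191 to 377 and 347 CPM (0.89). In each of the 3 genes the treated samples stood above the controls with no overlap. The medium neurofilament NEFM rose by 0.81 and the light neurofilament NEFL by 0.33, and the microtubule proteins MAP2, MAPT and DCX rose by 0.71, 0.65 and 0.62. Of the receptors, RET rose from 407 and 435 to 588 and 655 CPM (0.56) and NTRK2, a neurotrophin receptor, from 71.9 and 71.1 to 106 and 105 CPM (0.56). The heavy neurofilament NEFH and the tubulin TUBB3 did not pass, with log2 fold changes of 0.07 and 0.03. Without single samples, 20 to 24 members rose.

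The gene with the highest log2 fold change of at least 1 CPM was BRINP2, of the BMP and retinoic acid inducible neural family (chromosome 1, 177140094 to 177251558). It rose 8.48-fold, from 3.77 and 2.85 to 31.8 and 25 CPM (adjusted p = 4.61e-11). Next among named genes were the receptor gene GPR22, at 5.47 and 6.47 against 1.2 and 1.01 CPM, and CDH6, a cadherin gene, at 6.58 and 8.78 against 1.54 and 1.46 CPM. CNGB1, a cyclic nucleotide-gated channel subunit, FABP3, a fatty acid-binding protein, and CCDC184 rose by 2.20, 2.18 and 2.17 on the log2 scale. Another 4 of the 10 highest carry clone-based names, RP11-277P12.20, AC106869.2, RP11-440G9.1 and RP11-59D5__B.2, with log2 fold changes of 2.98, 2.67, 2.31 and 2.29.

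The transcription factors that set adrenergic identity moved little. Of 18 such genes, 3 rose and 4 fell, with a median of -0.04. ISL1, which is needed for sympathetic neuron development, rose from 311 and 290 to 439 and 410 CPM (log2 fold change 0.50), and GATA2 and HEY1 rose by 0.32 and 0.50. TBX2 fell from 132 and 136 to 108 and 97.4 CPM (-0.38). Of 11 genes for making and storing catecholamines, 6 rose and 2 fell. SLC6A2, the noradrenaline transporter, rose from 35.6 and 34.8 to 59.3 and 58.2 CPM (0.74, adjusted p = 4.59e-07), and the vesicle transporter SLC18A1 rose 2.14-fold. TH, the rate-limiting enzyme of catecholamine synthesis, rose by 0.36. The 2 that fell were DBH, which makes noradrenaline, from 711 and 682 to 635 and 544 CPM (-0.24, adjusted p = 0.0354), and the vesicle transporter SLC18A2, from 1.16 and 1.76 to 0.826 and 0.897 CPM (-0.74, adjusted p = 0.0129). The call of DBH was lost without the second treated sample (adjusted p = 0.328) or either control, and that of SLC18A2 without the first treated sample (adjusted p = 0.0868) or the second control (adjusted p = 0.218).

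Mesenchymal-state genes fell in part, with 10 of 20 lower and 1 higher. Without the first treated sample 6 were lower, and the median log2 fold change of the list ran from -0.69 to -0.22 over the samples left out. COL1A1, a chain of type I collagen, went from 94.1 and 99.1 to 30.5 and 35.6 CPM (log2 fold change -1.55, adjusted p = 7.09e-10). SNAI2, which encodes the factor SLUG, fell by 0.93, and WWTR1, which encodes TAZ, fell 3.46-fold from a level of 2.49 and 2.42 CPM. TWIST1 fell from 202 and 190 to 129 and 116 CPM (-0.68). COL1A2, the other chain of type I collagen, was the gene that rose, from 1.40 and 1.65 to 3.48 and 3.75 CPM. The median of the list was -0.38, or -0.47 with members near 0 counts set to their bound. Markers of other cell types were read beside these. Of 16 such markers 11 were tested, 3 fell and none rose, and their summed level was 190 and 226 CPM with palbociclib and 221 and 233 CPM in the controls. Nearly all of that came from the fibroblast and stromal markers DCN (87.0 and 105 against 75.0 and 79.1 CPM), LUM (48.2 and 61.7 against 58.3 and 64.5 CPM) and PDGFRB, which fell from 84.0 and 85 to 52.0 and 56.2 CPM. KRT5 of epithelia and PECAM1 of endothelium were at 0 in every CHLA15 sample, and PTPRC of blood cells was at most 0.122 CPM. The part of the stromal markers in the collagen values was not tested.

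Genes of cholesterol synthesis and uptake rose by small steps. Of 23 genes tested, 17 rose (73.9%, against 14.2% of all genes) and none fell, with a median of 0.38. STARD4, a cholesterol carrier, rose from 82.7 and 80.0 to 141 and 131 CPM (log2 fold change 0.74, adjusted p = 4.84e-08). HMGCS1, an early enzyme of the pathway, rose from 94.7 and 88.9 to 138 and 135 CPM (0.57). IDI1, which makes an isoprenoid building block, rose by 0.48, and SQLE, which oxidises squalene, by 0.35. In these 4 genes both treated samples lay above both controls. PMVK, MVK and LSS, which also act in the pathway, had log2 fold changes of -0.14, -0.08 and -0.06 and did not pass.

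**Figure D4:**
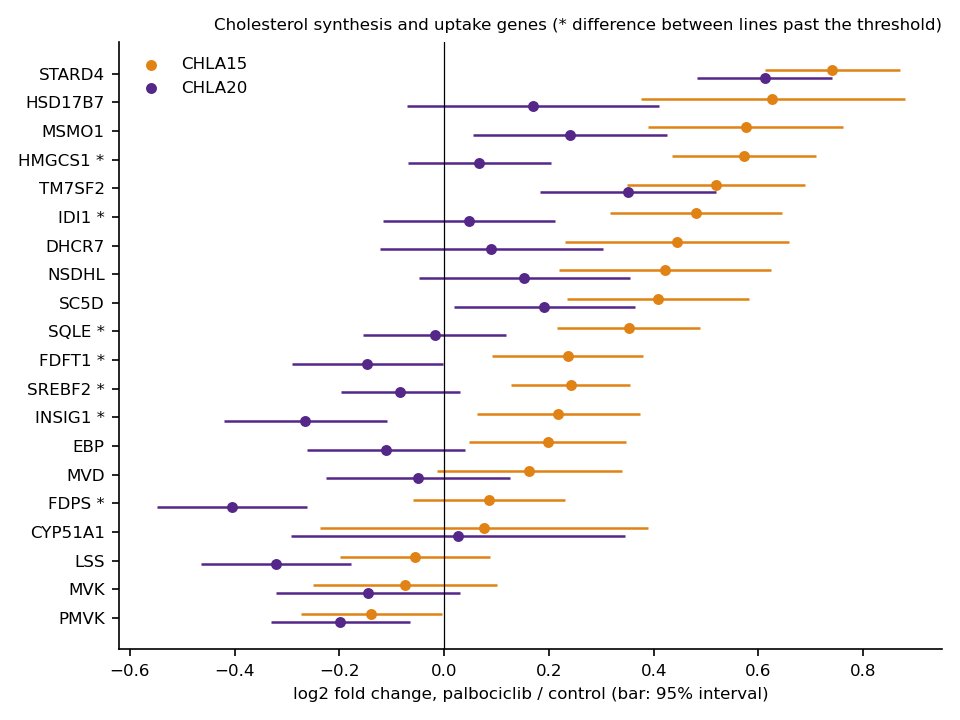
Log2 fold change with 300 nM palbociclib, with 95% intervals, of 20 genes of cholesterol synthesis and uptake in CHLA15 and in CHLA20 (x axis), with a star at genes whose difference between the lines passed the test. The CHLA15 value is the higher in each gene and runs from 0.74 in STARD4 to -0.14 in PMVK, and the CHLA20 values scatter about 0 (the median of all 23 genes tested is -0.02).

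Other groups moved in both directions. Among MYC partners, the antagonists MXD1 and MXD4 rose from 17.1 and 17.2 to 31.0 and 32.8 CPM (log2 fold change 0.89) and from 103 and 103 to 164 and 157 CPM (0.64), whereas MXD3, which is expressed in S phase, fell by 1.02. Of 11 genes for Polycomb complex PRC2 and the KDM6 demethylases, 5 fell and 1 rose. The rise was small (JARID2, log2 fold change 0.17), and other tools and settings gave 0 to 2 genes higher and 5 to 7 lower. EZH2, the methyltransferase of PRC2, went from 112 and 114 to 85.3 and 87.2 CPM (-0.39, adjusted p = 1.48e-05), and KDM6B, the H3K27 demethylase, stood at 116 and 118 against 106 and 98.3 CPM and did not pass (log2 fold change 0.20, adjusted p = 0.0625), though it did under 5 alternatives, with an adjusted p from 0.00614 with the compared samples fitted alone to 0.0441 with DESeq2's size factors. Of 25 targets of p53, 11 fell and 5 rose, with FAS (-1.41), SESN2 (also in the stress response list) and SPATA18 (-0.86) lowest and TP53INP1 highest (0.60). In the BCL2 family, 6 of 15 genes rose and 4 fell. BCL2, the survival protein, rose from 295 and 282 to 408 and 417 CPM (0.52) and the neuronal pro-death gene HRK from 1.83 and 1.93 to 5.23 and 5.49 CPM (1.51). The pro-death genes PMAIP1, which encodes NOXA, and BMF fell by 0.84 and 0.72. Members that promote survival and members that promote death were thus both among the genes that rose.

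Of 31 lysosomal genes, 8 rose and 8 fell, led by ASAH1 and the proton pump subunit ATP6V0D1 (both 0.45) and by TFEB (-0.62), which encodes a regulator of lysosomal genes. Of 16 genes of ribosome biogenesis in the list, 4 fell and 1 rose. The nucleolar proteins NPM1 and NCL fell by 0.29 and 0.26. Immediate early genes of the AP-1 list rose in 4 of 11 and fell in 1, which was ATF3. FOS and EGR1 rose 4.24-fold and 3.97-fold from low levels, FOS from 0.251 and 0.209 to 0.939 and 1.04 CPM. Of 15 tested genes for secreted factors of senescence and LMNB1, 2 rose and 4 fell. IGFBP5 fell from 70.6 and 69.0 to 35.1 and 37.7 CPM (-0.94), IGFBP3 rose by 0.74, and LMNB1, whose loss marks senescent cells, fell by 0.27. IL6, CXCL1, CXCL2, IL1A and MMP1 were at 0 in every CHLA15 sample, and CXCL8 and IL1B were within 3 counts of 0. Of 25 interferon-stimulated genes tested, 4 fell (16%, near the 15.6% of all genes) and 1 rose, with XAF1 at 0.146 and 0.0961 against 0.712 and 1.03 CPM and BST2 lower by 1.23. Of 16 genes of MHC class I presentation, 3 fell (18.8%, also near that share) and 1 rose. B2M, the shared light chain, stood at 162 and 169 against 142 and 154 CPM and did not pass the test.

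The response was then set beside that of CHLA20 at the same dose and time. In CHLA20, 6544 genes passed (29.6%), 3026 higher (13.7%) and 3518 lower (15.9%). The 2 comparisons have separate controls. Over the 8 samples of both lines, the first principal component (41.7% of the variance) separated treated from control samples and the second (19%) separated the lines. How closely the 2 lines are related was not tested, so their agreement is not a replication in a line known to be unrelated. Of the genes called in CHLA15, 4275 were called in the same direction in CHLA20, which is 64.8% of the calls of CHLA15 and 65.3% of those of CHLA20, and 54 were called in opposite directions. Across the 13886 genes of at least 1 CPM the log2 fold changes had a Pearson r of 0.821, which is across genes, and genes are not independent replicates. Over all genes tested, Pearson r was 0.404 and Spearman rho 0.52. The difference between the responses passed the test for 446 genes (2.02%), with the CHLA15 response the higher in 192 and the lower in 254. With library totals 32.6% of the differences were higher in CHLA15 and with DESeq2's size factors 57.9%, against 43.0% here, so the balance of the 2 directions depends on the scaling. The number of differences also rested on single samples, from 50 without the second treated CHLA20 sample to 1305 without the first CHLA20 control.

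**Figure D5:**
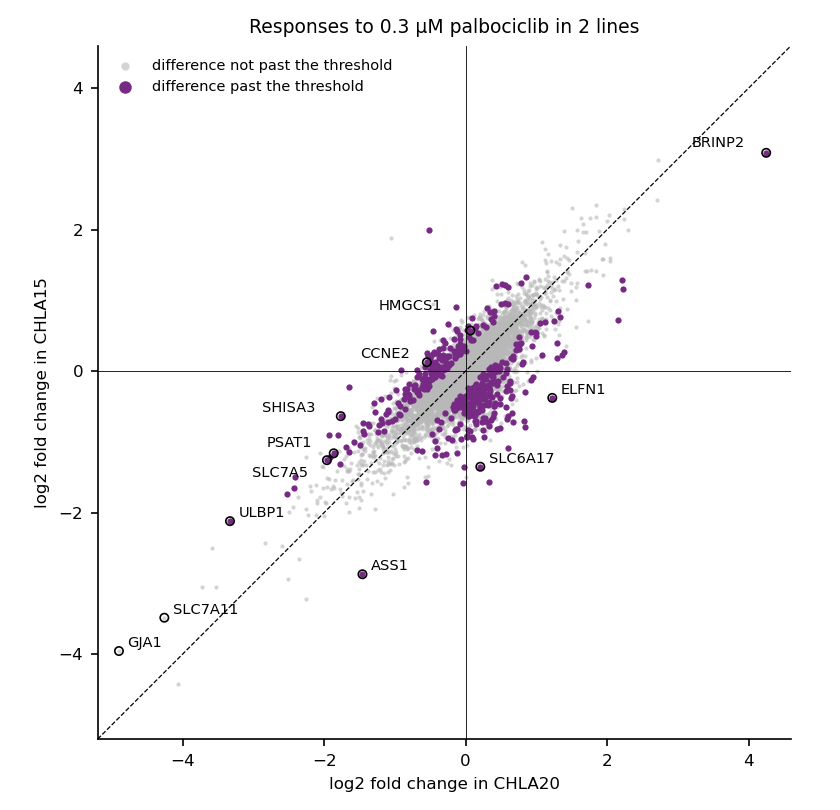
Log2 fold change with 300 nM palbociclib in CHLA15 (y axis) against that in CHLA20 (x axis), 1 point a gene for the 13886 genes of at least 1 CPM, in purple where the difference passed the edgeR test, with the line of equal change dashed. Most genes lie along the line, ASS1 (-2.87) and SLC6A17 (-1.35) lie below it in CHLA15, and 1 gene, INHBE, lies outside the frame.

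ASS1 fell further in CHLA15. In CHLA20 it stood at 49.6 and 48.0 CPM with palbociclib and 154 and 114 CPM in the controls, and the difference of the 2 log2 fold changes was -1.41 (SE 0.146, adjusted p = 0.000177). SLC6A17, a vesicular amino acid transporter of neurons, fell in CHLA15 from 16.3 and 15.6 to 7.09 and 5.4 CPM and was 5.15 and 4.91 against 4.36 and 4.35 CPM in CHLA20 (difference -1.56, adjusted p = 8.07e-05). SHISA3 fell in both, by 0.64 in CHLA15 and by 1.76 in CHLA20 (difference 1.13, adjusted p = 0.000918). ELFN1, a synaptic adhesion protein, had a log2 fold change of -0.38 in CHLA15 and 1.22 in CHLA20, a difference of -1.60 (adjusted p = 0.00077). These 4 differences passed without each of the 8 samples in turn, while the fall of ELFN1 in CHLA15 taken alone (adjusted p = 0.0431) did not, reaching an adjusted p of 0.255 without the second treated sample. BRINP2 rose less in CHLA15 than in CHLA20 (3.08 against 4.25, difference -1.16, adjusted p = 0.00975), a call that held without 5 of the 8 samples.

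The differences between the lines are given next for the gene lists, whose counts stand against the 2.02% of all genes and were not compared with each other. The median fitted difference of all genes was 0.001. Fitted differences were above 0 in 28 of 28 origin licensing genes, 27 of 28 replication fork genes and 52 of 59 histone genes. In neuronal genes 7 of 27 were above 0. A list with most differences above 0 was therefore not particular to cholesterol genes. In cholesterol genes, 9 of 23 differences passed and all 23 fitted differences were above 0, with a median of 0.33. Without the second CHLA20 control the median difference was 0.15, with 21 of the 23 above 0, and without the first it was 0.48. The median log2 fold change in CHLA20 was -0.02. HMGCS1 had a difference of 0.51 (adjusted p = 0.00948), with 0.57 in CHLA15 and 0.07 in CHLA20, and passed without 6 of the 8 samples in turn but not without the second CHLA15 control (adjusted p = 0.0597) or the second treated CHLA20 sample (adjusted p = 0.0651). Without single samples 0 to 16 of these differences passed, the 0 being without the second treated CHLA20 sample. In origin licensing genes, 7 of 28 differences passed, all with the higher log2 fold change in CHLA15, where MCM10 (0.02) and CDC6 (-0.02) among them did not pass, and leaving out samples gave 2 to 14. CCNE2, which encodes cyclin E2, showed 19.5 and 20.2 against 18.2 and 18.2 CPM in CHLA15, and its log2 fold change of 0.12 differed by 0.67 from the -0.55 of CHLA20 (adjusted p = 0.00726, and 0.0559 without the second treated CHLA20 sample). The differences of E2F1 (0.45) and E2F8 (0.52) also passed but held without only 4 and 5 of the 8 samples. In the kinetochore and kinesin lists, of 31 genes each, no difference passed edgeR's test in the fit of all samples. Without adjustment 9 and 8 had a p below 0.05, as did 3177 of the 22133 genes tested. The fitted difference was above 0 in 28 and 30 of the 31, with medians of 0.13 and 0.12. With a sample left out, 0 to 7 kinetochore genes and 0 to 3 genes of the kinesin group passed, and under the other tools and settings 0 to 3 and 0 to 4. In the stress response list 4 of 13 differences passed, ATF4 (0.31), SLC7A5, SESN2 and PSAT1 (each 0.70), with the smaller fall in CHLA15 in each, and those of SLC7A5 and PSAT1 held without each of the 8 samples. In neuronal genes none of 27 passed in edgeR, 9 had an unadjusted p below 0.05, and other tools and settings gave at most 1 higher and 2 lower.

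NB1643 and NB1691 received 3 µM and are other lines, so dose and line cannot be told apart. Their values stand beside those of CHLA15 and no comparison is made. In untreated cells, mean MYCN was 3180 CPM in NB1643, 86.3 in NB1691 and 2.29 in CHLA15. Mean CDK4 was 224, 5750 and 258 CPM in the same order. The median log2 fold change of the kinetochore genes was -2.64 in NB1643 and -2.68 in NB1691, and that of CHLA15 -0.32. For the stress response genes the medians were -0.20 and 0.28, with -1.26 in CHLA15. For the neuronal genes they were 0.49 and 0.59, with 0.48 in CHLA15.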

How the data were processed

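Total RNA of CHLA15 cells was sequenced as paired reads, and the submitters' processing notes name CASAVA, STAR 2.5.3a and HTSeq with build hg19 (GRCh37). The authors deposited raw counts per gene, 1 file a sample, from htseq-count on 50778 gene symbols. The strand setting is not given in the sources used here, so antisense and overlapping genes cannot be separated. Summary lines of unassigned reads (18.8% to 20.6% of all counts in the CHLA15 samples) stayed out of library sizes. Of the labels, the extract text describes xenograft tissue whereas the study's methods describe cultured cells.

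The 16 samples of the 4 lines with and without palbociclib were fitted together in edgeR 4.0.16 (R 4.3.3) with TMM scaling, filterByExpr (22133 genes kept) and the quasi-likelihood F test. P-values were adjusted over all genes tested by the method of Benjamini and Hochberg, and 0.05 was the threshold. The contrasts were palbociclib minus control in CHLA15 and in CHLA20, and their difference. On simulated counts with 200 changed genes in the CHLA15 contrast, 171 were found (85.5%), with 15 false calls among 186. The changed genes had a mean of at least 1 CPM and log2 changes of 0.5, 1 or 2 in size, and no other gene changed. Smaller changes and genes of lower level were thus not covered. Alternatives were other scalings and filters, limma-voom 3.58.1 (the study's own method), DESeq2 1.42.0, the compared samples alone, a replicate block and single samples left out. With 2 samples a side an exact permutation test could not go below p = 0.333, so none was used. No 2 samples of CHLA15 agreed within sampling noise. Samples of a pair differed by 7.14 (treated) and 3.90 (control) times the variance that counting gives. In CHLA20, whose samples enter each difference between the lines, the factors were 2.22 (treated) and 19.2 (control).

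Named genes were the 10 highest and 10 lowest log2 fold changes past the threshold with a mean of at least 1 CPM and no overlap of the groups, the members of the first 3 of 30 lists (cyclin D, CDK inhibitors and E2F) with fixed cell cycle and line markers, the 3 highest and 3 lowest of each other list, and the 5 highest and 5 lowest differences from CHLA20. Not every gene of this rule is printed, and some list members are not reported here. Genes outside it, such as PHGDH, MAP2, SQLE and RET, were chosen after their values were seen. The members, lists and tests were chosen with earlier results of these data known, and the lists of the closing section and the TGATGNAA motif after the values were seen. Coordinates of genes are from GENCODE 44 lifted to GRCh37, matched by symbol (78.0% of genes tested). Promoters are from RefSeq on GRCh38.p14 and were used for sequence alone.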

Additional observations from a re-analysis of the deposited data

Results flagged for a closer look

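The difference between the response of CHLA15 and that of CHLA20 at the same dose and time, tested as an interaction in edgeR's quasi-likelihood fit and given as CHLA15 minus CHLA20 on the log2 scale, passed an adjusted p of 0.05 for 446 genes. Of the genes named in the text, 34 passed, and 9 of them passed without each of the 8 samples in turn. These 9 were ACCS (-1.63), ASS1 (-1.41), ELFN1 (-1.60), MCM10 (0.52), PSAT1 (0.70), RP11-54O7.3 (-1.69), SHISA3 (1.13), SLC6A17 (-1.56) and SLC7A5 (0.70).

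The other 25 lost the call without at least 1 of the 8 samples, and the number of samples that could be left out singly with the call kept ran from 1 to 7. Among genes of the cell cycle these were CCNE2 (0.67), CDC6 (0.46), E2F1 (0.45), E2F8 (0.52), MCM3 (0.31), RFC3 (0.40), RRM2 (0.48) and the histone genes HIST1H1C (0.77) and HIST1H2BK (0.79). Among cholesterol genes they were HMGCS1 (0.51), IDI1 (0.43) and SQLE (0.37). Among genes of amino acid supply and the stress response they were ATF4 (0.31), MTHFD2 (0.45), SESN2 (0.70), SLC1A5 (0.50), SLC3A2 (0.46) and SLC7A6 (0.30). BMF (-0.38) and BRINP2 (-1.16) were lower in CHLA15.

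The remaining differences include the highest and lowest that passed among genes of at least 1 CPM. RN7SL1, a gene for the 7SL RNA with many near-identical copies, had a difference of 2.50, and its treated CHLA15 samples were 4.62 and 15.7 CPM against 2.56 and 2.56 CPM, so that the value fell to 1.38 without the second of them. SCARNA15, a small Cajal body RNA, had a difference of -1.90, from 0.372 and 0.769 against 1.52 and 1.91 CPM in CHLA15. POSTN, the matrix protein periostin, differed by 1.42, CA12, a carbonic anhydrase, by 1.30 and ULBP1, a ligand of natural killer cells, by 1.21. Each of the 3 had the lower log2 fold change in CHLA20, with -1.65, -2.69 and -3.33 in CHLA20, and POSTN did not pass in CHLA15.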

How the results depend on the processing

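The count of 6598 changed genes in CHLA15 stayed within 1.5 times under other scalings, filters, tools and fits, and was 4419 to 4883 with single samples left out. It was 2600 with a log2 fold change beyond 0.5 and 946 beyond 1. The 446 differences from CHLA20 became 241 and 61 beyond those limits, 846 with no filter beyond 1 count, 239 with the 8 compared samples fitted alone, 831 with DESeq2, and 50 to 1305 with single samples left out. The causes were not tested, apart from the number of samples or genes that each setting changes by construction. Deviations of same-numbered samples correlated at 0.0483 across genes in CHLA15. With 1 such pair of deviations in the line, this cannot show whether same-numbered samples shared a culture or batch. A replicate block gave 6717 changed genes and 591 differences. Library totals moved the share of CHLA15 calls that were higher from 47.6% to 40.0% and DESeq2 moved it to 52.4%.

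Of 176 named genes, 150 passed in CHLA15 and 141 of those did so under every alternative that gave a value. ACCS, DBH, ELFN1, HIST1H4A, MKI67, ORC6, RN7SL1, SLC18A2 and SLC38A9 did not. Another 9 genes that had not passed did so under at least 1 alternative, B2M, CDK1, CDK6, DCN, KDM6B, LUM, MYC, PMVK and POSTN. Genes that had not passed changed sign as follows, in log2 fold change. With library totals MCM10 was -0.02 and TUBB3 -0.0044. With single samples left out, the ranges were -0.07 to 0.02 for CDC6, -0.05 to 0.0018 for CDKN1B, -0.01 to 0.09 for E2F1, -0.36 to 0.01 for LUM, -0.01 to 0.04 for MCM10, -0.79 to 0.18 for POSTN and -0.08 to 0.13 for TUBB3. With 2 samples a group, small changes in genes of few counts lie beyond what these data can show.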

Other observations

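Gene lists drawn up after the values were seen, and so described here without a test of the lists, extended the account of amino acid metabolism. Of 15 genes for the synthesis of serine, one-carbon units, asparagine, proline and cysteine, 14 fell in CHLA15 and none rose, with a median log2 fold change of -0.78. SHMT2, the mitochondrial enzyme that splits serine, went from 636 and 707 to 208 and 207 CPM (log2 fold change -1.70), and MTHFD2, which follows it in the one-carbon pathway, from 333 and 370 to 205 and 209 CPM (-0.77). ALDH1L2, a mitochondrial folate enzyme, fell by 1.53. The member that did not pass was ALDH18A1, of proline synthesis, at 136 and 136 against 131 and 129 CPM. Several of these genes are also in the stress response list of the report.

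Of 20 cytosolic aminoacyl-tRNA synthetase genes, which charge tRNAs for translation, 16 fell and 1 rose, with a median of -0.34. AARS, for alanine, went from 158 and 166 to 86.3 and 86.5 CPM (-0.91), and HARS, for histidine, was the one that rose, by 0.25. Of 17 mitochondrial synthetase genes, 6 fell and 2 rose, with a median of -0.10 and a range from -0.29 to 0.19. Other tools and settings gave 5 to 6 of them lower and 1 to 3 higher. Of 17 amino acid transporter genes, 10 fell and 3 rose, with a median of -0.71. The glutamine carrier SLC1A5 went from 145 and 160 to 69.9 and 67.7 CPM (-1.15), and SLC3A2, the heavy chain shared by SLC7A11 and SLC7A5, fell by 1.04. SLC43A2, SLC7A6 and SLC38A9, which also carry or sense amino acids, rose by 0.95, 0.69 and 0.30, the last with an adjusted p of 0.0837 without the second control. Of 83 cytosolic ribosomal protein genes, 6 rose (7.23%, against 14.2% of all genes) and 2 fell, with a median of 0.06. The number that rose was 35 with the compared samples fitted alone, 18 with no filter beyond 1 count and 3 to 4 with single samples left out, and many have near-identical pseudogene copies that could split their reads. BRINP1, of the same family as BRINP2, rose from 5.20 and 5.12 to 9.91 and 10.3 CPM (0.97).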
